A study of Sus scrofa with 6 samples.

Results

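Genes of macrophages and other phagocytes were examined in the subcutaneous fat of Duroc × Landrace × Yorkshire hybrid pigs. The set names 32 genes by pig symbol, and 30 of them have a row among the 22844 rows of the deposited library tables. Of these, 29 were matched by symbol. CYBB is listed under another pig symbol and was matched through its RefSeq synonym. ADGRE1, an adhesion receptor of macrophages, and MPEG1, a pore-forming protein of phagocytes, have no row and are not analysed here.

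The control diet and a diet supplemented with resveratrol at 400 mg/kg, a polyphenol of grapes and other plants, have 3 libraries each, made from total RNA with a long non-coding RNA kit. The labels give neither the age and sex of the animals nor the days on the diet. They do not say that each sample is a separate animal. A p-value therefore sets the difference between diets against the spread of these samples only, and that spread may be technical. The samples are pieces of whole fat, in which more cells of a type and more RNA per cell cannot be told apart.

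Macrophages take up debris, pathogens and dying cells and digest them in lysosomes. In fat they lie between the adipocytes. They need the receptor CSF1R and its ligand CSF1 for survival, and the transcription factor SPI1 for their identity. Resident macrophages carry scavenger receptors such as CD163 and MRC1, whereas macrophages that gather around failing adipocytes carry TREM2 and GPNMB and handle lipid in lysosomes. Activated phagocytes make superoxide with the NADPH oxidase, whose membrane core is formed by CYBB and CYBA and whose cytosolic subunits include NCF1 and NCF4.

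Depth lay between 16251536 reads (control 2) and 37943877 reads (resveratrol 2). The 30 genes together took 0.145% of the reads in control 3 and 0.246% in resveratrol 1, the lowest and highest of the 6 libraries. Fat cell markers were abundant everywhere, with a summed level of 17459 to 24354 TPM (a level scaled for transcript length and for the library total) in control and 21348 to 27050 TPM under resveratrol over 7 genes that include ADIPOQ and PLIN1. Control 2 lay apart from the other libraries on the first principal component of all genes. Control 1 held most of the tendon and cartilage signal, with a summed 101 TPM over TNMD, COMP, COL2A1, ACAN and SCX against 7.496 and 24.7 TPM in control 2 and 3 and 3.18 to 5.13 TPM under resveratrol. All 5 of these genes were highest in control 1.

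All 30 genes were expressed above the filter of a mean of 0.5 TPM and were tested. No gene of the set passed an adjusted p under 0.05 in edgeR's quasi-likelihood test, and none of the 14908 tested rows did (0%). DESeq2 called 0.268% of all rows, and 0 of the 30. Log2 fold changes of resveratrol against control were above 0 in 27 of the 30 genes, where 48.8% of all rows lay above 0. Their median was 0.32, against -0.0075 over all rows. At an unadjusted p under 0.05 in edgeR, 6 of the 30 were higher (2.21% of all rows) and 0 were lower (4.32% of all rows; 6.53% in either direction). The 6 were LYZ, MSR1, TYROBP, AIF1, CTSS and CD53, and each had an adjusted p of 0.733. The set was drawn up with earlier results of the same libraries known, so the counts describe the set and are not independent support for its direction.

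**Figure D1:**
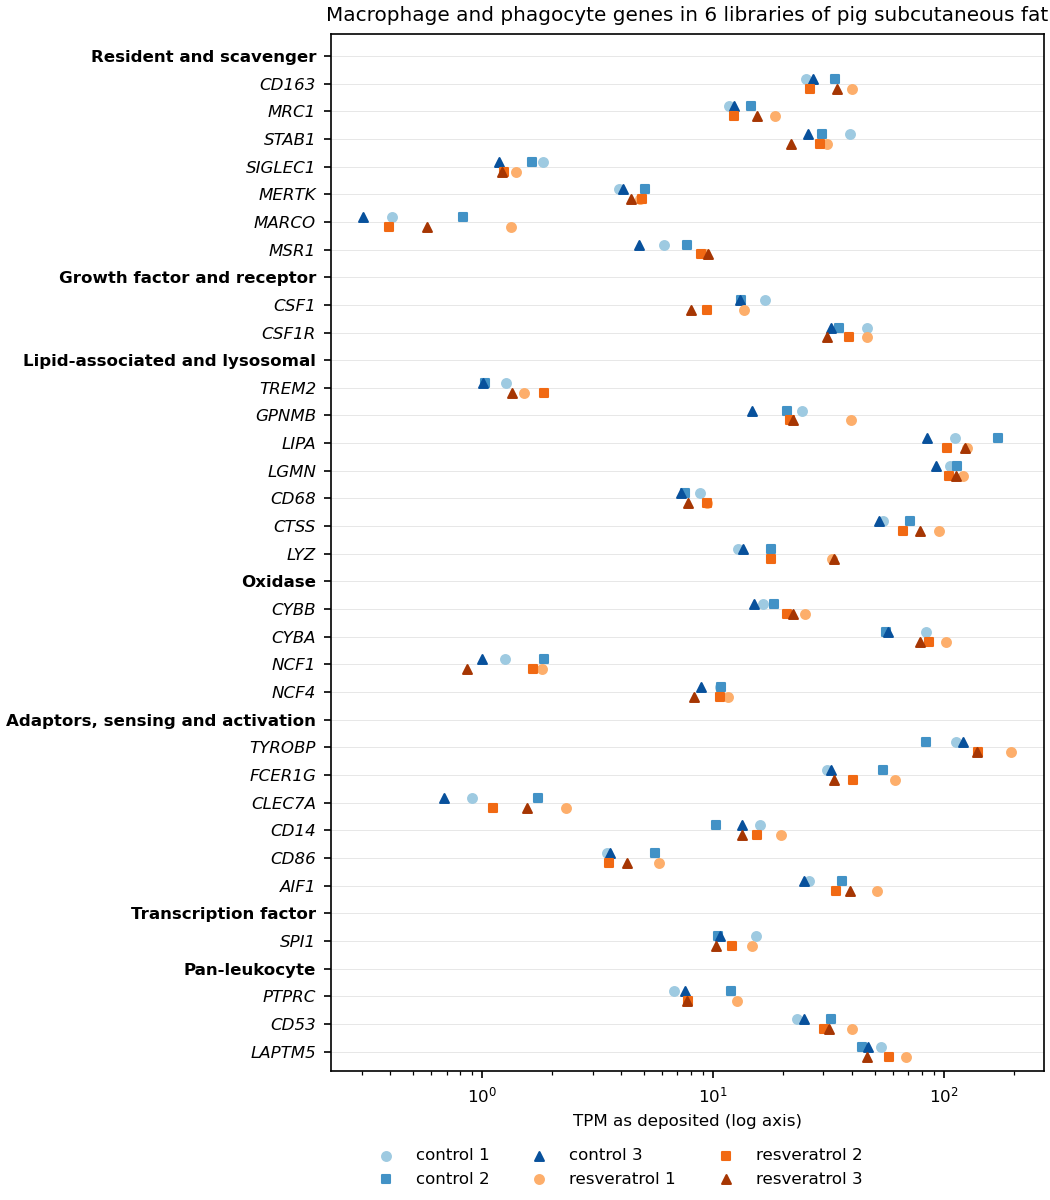
Deposited TPM of the 30 genes (log axis) in the 3 control libraries (blue, upper points) and the 3 resveratrol libraries (orange, lower points), grouped by role. Levels run from 0.304 TPM (MARCO, control 3) to 195 TPM (TYROBP, resveratrol 1), and for most genes the resveratrol 1 point lies farthest to the right.

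Levels per length spanned a wide range in control fat. LIPA, TYROBP and LGMN averaged 122, 105 and 104 TPM, and 17 genes lay between 10 and 100 TPM. MARCO, TREM2, CLEC7A, NCF1 and SIGLEC1 averaged under 2 TPM. Reads were few for 3 of these, with 17 to 88 per library for MARCO, 13 to 58 for TREM2 and 14 to 66 for CLEC7A. CYBB rested on 35 to 122 reads although it measured 15.04 to 25.0 TPM. Its row had 1.91 to 4.89 reads per TPM, against 88.6 to 217 for CD163, so a short transcript was assigned to it.

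Among the 7 resident and scavenger genes with a row, 1 differed at an unadjusted p under 0.05 (6.53% of all rows in either direction). This was MSR1, a class A scavenger receptor for modified lipoproteins (ENSSSCG00000006979.4). In replicate order, here and below, it measured 6.11, 7.69 and 4.76 TPM in the controls and 9.19, 8.87 and 9.48 TPM under resveratrol. Every resveratrol library lay above every control library, and the 3 resveratrol values were closer together than the control values. In edgeR the log2 fold change was 0.69 (SE 0.18), with an adjusted p of 0.733. It ranged from 0.58 to 0.76 with each library left out.

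CD163, the receptor that clears haemoglobin bound to haptoglobin (ENSSSCG00000033146.1), measured 25.3, 33.6 and 27.0 TPM in the controls and 39.8, 26.3 and 34.5 TPM under resveratrol. MRC1, the mannose receptor (ENSSSCG00000011038.4), measured 11.7, 14.6 and 12.3 TPM in the controls and 18.5, 12.3 and 15.5 TPM under resveratrol. Both overlapped between the diets, since resveratrol 2 stood at the control level and resveratrol 1 was the highest. Their log2 fold changes were 0.34 (SE 0.20) and 0.37 (SE 0.18). MERTK, a receptor tyrosine kinase for the uptake of dying cells, differed little in size, with a log2 fold change of 0.22 (SE 0.15). On read counts scaled to a common library size by TMM (CPM) it lay at 20.9, 22.6 and 21.7 in control and 25.3, 25.3 and 25.2 in resveratrol, without overlap, whereas its TPM overlapped.

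STAB1 and SIGLEC1 went the other way in sign. STAB1, a scavenger receptor that sinusoidal and lymphatic endothelium also carries, measured 39.2, 29.6 and 25.7 TPM in the controls and 31.0, 29.0 and 21.7 TPM under resveratrol, a log2 fold change of -0.13 (SE 0.22). SIGLEC1, a lectin for sialylated glycans, measured 1.83, 1.64 and 1.19 TPM in the controls and 1.40, 1.25 and 1.21 TPM under resveratrol, a log2 fold change of -0.15 (SE 0.20). In both, control 1 was the highest library, and without it the values were 0.12 and 0.04. MARCO, a scavenger receptor for bacteria, was highest in resveratrol 1 at 1.33 TPM and at 0.304 to 0.823 TPM elsewhere. Its log2 fold change of 0.74 (SE 0.53) became 0.13 without resveratrol 1.

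The growth factor and its receptor had log2 fold changes of opposite sign, but the receptor's was smaller than its SE and the difference between them was not tested. CSF1 (ENSSSCG00000037449.1), which fibroblasts, endothelium and adipocytes also secrete, had the lowest log2 fold change of the set, at -0.41 (SE 0.22, edgeR adjusted p = 0.733). It measured 16.8, 13.2 and 13.1 TPM in the controls and 13.6, 9.37 and 7.998 TPM under resveratrol, so that resveratrol 1 lay within the control range and the other two below it. Without resveratrol 1 the log2 fold change was -0.63, and without control 1 it was -0.22. CSF1 was the single gene of the set that reached an unadjusted p under 0.05 in the lower direction, in edgeR without resveratrol 1 or without control 2. Fibroblast markers summed to 8570 TPM in control 1, the library with the highest CSF1, and to 2884 to 3853 TPM in the other controls and 2431 to 3547 TPM under resveratrol. In control 1, 3 of the 5 fibroblast markers were at their highest, and their part in the CSF1 values was not tested.

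CSF1R (ENSSSCG00000014441.3), the receptor that binds CSF1 on macrophages, measured 46.2, 34.9 and 32.4 TPM in the controls and 46.5, 38.7 and 31.1 TPM under resveratrol. The groups overlapped over almost their whole range. Its log2 fold change was 0.11 (SE 0.22), and it was -0.02 both without control 2 and without resveratrol 1. SPI1 (ENSSSCG00000013237.3), the transcription factor that acts on the promoters of many of these genes, measured 15.3, 10.5 and 10.7 TPM in the controls and 14.7, 12.1 and 10.3 TPM under resveratrol. With a log2 fold change of 0.07 (SE 0.23) it was among the smallest differences of the set, and each group held 1 high library.

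The lipid-associated and lysosomal genes had a median log2 fold change of 0.54, with 7 of 7 above 0 and 2 at an unadjusted p under 0.05. Without resveratrol 1 this median was 0.25. LYZ, the lysozyme that cleaves bacterial cell walls (ENSSSCG00000000492.4), measured 12.8, 17.7 and 13.5 TPM in the controls and 32.7, 17.8 and 33.5 TPM under resveratrol. Resveratrol 1 and 3 stood far above the controls and resveratrol 2 just above the highest control. The log2 fold change of 1.03 (SE 0.27, edgeR adjusted p = 0.733) was the largest of the set. It ranged from 0.85 to 1.29 with each library left out.

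CTSS, a lysosomal cysteine protease that trims the invariant chain of antigen presentation (ENSSSCG00000006648.3), measured 54.1, 70.9 and 52.2 TPM in the controls and 95.4, 66.2 and 78.3 TPM under resveratrol. TPM overlapped in 1 pair, control 2 and resveratrol 2, while TMM-scaled CPM ran from 75.4 to 84.0 in control and from 91.7 to 133 in resveratrol without overlap. The log2 fold change was 0.54 (SE 0.18).

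TREM2, the lipid-sensing receptor of lipid-associated macrophages (ENSSSCG00000039270.1), measured 1.27, 1.03 and 1.01 TPM in the controls and 1.52, 1.85 and 1.34 TPM under resveratrol. Its groups did not overlap, but the few reads left a wide error, with a log2 fold change of 0.55 (SE 0.37). GPNMB, a transmembrane glycoprotein of lipid-laden macrophages (ENSSSCG00000032241.1), measured 24.2, 20.9 and 14.7 TPM in the controls and 39.4, 21.6 and 22.2 TPM under resveratrol. Here 1 library carried most of the difference, since the log2 fold change of 0.56 (SE 0.26) was 0.25 without resveratrol 1.

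LIPA, the acid lipase that frees fatty acids and cholesterol in lysosomes (ENSSSCG00000010450.3), measured 111, 171 and 84.6 TPM in the controls and 125, 103 and 123 TPM under resveratrol. Control 2 was its highest library, and the log2 fold change was 0.08 (SE 0.22) on counts but -0.0074 in limma on log2(TPM + 0.5). LGMN, a lysosomal asparaginyl endopeptidase, measured 106, 114 and 92.5 TPM in the controls and 121, 105 and 113 TPM under resveratrol, a log2 fold change of 0.21 (SE 0.17). CD68, a glycoprotein of the lysosome membrane, measured 8.78, 7.54 and 7.26 TPM in the controls and 9.42, 9.39 and 7.75 TPM under resveratrol, a log2 fold change of 0.24 (SE 0.19) that was 0.38 without control 1 and 0.13 without control 2. All of these 3 overlapped between the diets.

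**Figure D2:**
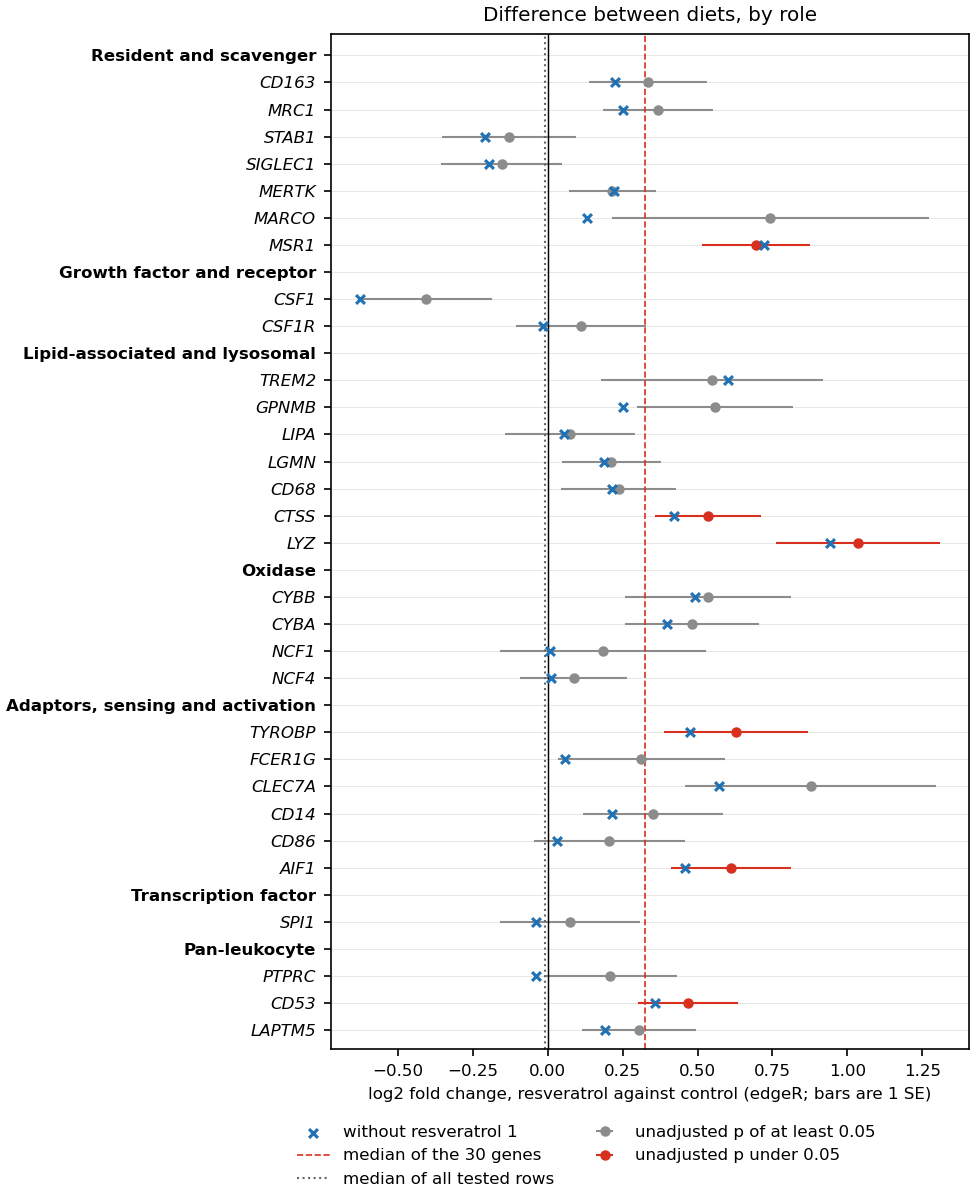
Log2 fold change of resveratrol against control in edgeR for the 30 genes, with bars of 1 SE; red marks an unadjusted p under 0.05, and blue crosses the value without resveratrol 1. The median of the set (red dashed line, 0.32) lies right of the median of all tested rows (dotted line, -0.0075), and most crosses lie left of their points.

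All 4 NADPH oxidase genes had log2 fold changes above 0 (48.8% of all rows), with a median of 0.33. At an unadjusted p under 0.05 there were 0 (6.53% of all rows in either direction). CYBB, the catalytic subunit that transfers electrons to oxygen (ENSSSCG00000036246.1), measured 16.4, 18.3 and 15.04 TPM in the controls and 25.0, 20.9 and 22.1 TPM under resveratrol, without overlap. Its log2 fold change was 0.54 (SE 0.28, edgeR adjusted p = 0.733) and ranged from 0.49 to 0.61 with each library left out. CYBA, its partner in the membrane, which many other cell types also express (ENSSSCG00000031493.1), measured 83.6, 55.7 and 57.2 TPM in the controls and 102, 85.9 and 78.6 TPM under resveratrol. The overlap came from control 1. The log2 fold change was 0.48 (SE 0.22), and it was 0.77 without control 1 and 0.30 without control 2.

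NCF1, the organizer that is phosphorylated on activation (ENSSSCG00000007722.3), measured 1.25, 1.85 and 0.995 TPM in the controls and 1.82, 1.66 and 0.855 TPM under resveratrol. NCF4, the subunit that binds phosphoinositides (ENSSSCG00000000137.4), measured 10.7, 10.8 and 8.89 TPM in the controls and 11.6, 10.7 and 8.26 TPM under resveratrol. Both had their lowest library in the resveratrol group, with log2 fold changes of 0.18 (SE 0.34) and 0.09 (SE 0.18), and both fold changes were 0.01 without resveratrol 1. The difference between the membrane and the cytosolic subunits was not tested. Of 6 other oxidase genes, 5 lay above 0 (48.8% of all rows) and 0 reached an unadjusted p under 0.05 (6.53% of all rows in either direction). DUOX2, an oxidase of epithelia, lay at a log2 fold change of 0.40 (SE 0.33).

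The adaptors and sensing receptors had 6 of 6 genes above 0, a median of 0.48 and 2 genes at an unadjusted p under 0.05. All 6 were highest in resveratrol 1. TYROBP, the signalling adaptor that TREM2 and many other myeloid receptors need (ENSSSCG00000002919.3), measured 112, 83.1 and 121 TPM in the controls and 195, 139.9 and 139 TPM under resveratrol. No resveratrol value reached down to the controls. The log2 fold change was 0.63 (SE 0.24), and it was 0.40 without control 2, the lowest library, and 0.47 without resveratrol 1.

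AIF1, a calcium-binding protein of the macrophage cytoskeleton (ENSSSCG00000032341.1), measured 25.9, 36.3 and 24.7 TPM in the controls and 51.3, 33.9 and 38.9 TPM under resveratrol. Its TPM overlapped through control 2, whereas on TMM-scaled CPM the highest control was 11.2 and the lowest resveratrol library 12.4. The log2 fold change was 0.61 (SE 0.20). FCER1G, the signalling chain of Fc receptors, measured 31.1, 54.2 and 32.5 TPM in the controls and 61.2, 40.2 and 33.3 TPM under resveratrol. This second adaptor overlapped widely, and its log2 fold change of 0.31 (SE 0.28) became 0.06 without resveratrol 1.

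CLEC7A, a receptor for fungal beta-glucan, had a log2 fold change of 0.88 (SE 0.42) on few reads, and of 0.57 without resveratrol 1. Its TMM-scaled CPM did not overlap, at 0.586 to 0.785 in control and 0.902 to 1.76 in resveratrol, but its TPM did. CD14, the co-receptor for bacterial lipopolysaccharide, lay at a log2 fold change of 0.35 (SE 0.23), and CD86, a costimulatory ligand for T cells, one of 0.21 (SE 0.25). Without resveratrol 1 these were 0.21 and 0.03. Leaving out a control moved them too, CD14 to 0.56 without control 1 and 0.14 without control 2, and CD86 to 0.11 and 0.34.

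The 3 genes that all or most leukocytes share had log2 fold changes above 0 (48.8% of all rows). Of them, CD53 was higher at an unadjusted p under 0.05 (2.21% of all rows). CD53, a tetraspanin (ENSSSCG00000006800.4), measured 23.1, 32.2 and 24.6 TPM in the controls and 39.9, 30.2 and 31.7 TPM under resveratrol, with a log2 fold change of 0.47 (SE 0.17). PTPRC, the phosphatase on all nucleated blood-derived cells (ENSSSCG00000010908.4), measured 6.78, 11.9 and 7.57 TPM in the controls and 12.7, 7.78 and 7.67 TPM under resveratrol. Its 2 high libraries, control 2 and resveratrol 1, were in different groups. The log2 fold change was 0.21 (SE 0.22), and it was -0.04 without resveratrol 1. LAPTM5, a lysosomal protein of leukocytes, had a log2 fold change of 0.31 (SE 0.19), which was 0.17 without control 2 and 0.19 without resveratrol 1.

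Set against PTPRC within each library, 21 of the other 29 genes had a higher mean log2 TPM ratio in resveratrol and 8 a lower one, with a median difference of 0.14. In 2 genes the ratios did not overlap between the diets. The share of all rows with such ratios is not given here, so these counts cannot be read against it. LYZ stood at 1.89, 1.49 and 1.78 times the PTPRC level in control and 2.58, 2.29 and 4.36 times in resveratrol. For AIF1 the ratios were 3.82, 3.04 and 3.26 in control and 4.04, 4.36 and 5.08 in resveratrol. TYROBP, at 16.6, 6.96 and 16.0 times PTPRC in control and 15.4, 17.98 and 18.1 times in resveratrol, overlapped through resveratrol 1 and had 1 low value, in control 2.

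Between individual libraries the size of the difference depended on which resveratrol library was taken. Resveratrol 1 was the highest library for 19 of the 30 genes, and it was the highest for 11.2% of all rows. Over the 30 genes the median log2 CPM difference of resveratrol 1 from control 1, 2 and 3 was 0.49, 0.61 and 0.56. For resveratrol 3 it was 0.21, 0.40 and 0.33, and for resveratrol 2 it was 0.03, 0.19 and 0.22. The same medians over all rows lay between -0.01 and 0.01. Resveratrol 2 thus differed little from control 1 over the set as a whole, with 18 of 30 genes higher in it.

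Without resveratrol 1, 24 of the 30 genes had a log2 fold change above 0 (49% of all rows), and the median was 0.21. LYZ and MSR1 alone were then higher at an unadjusted p under 0.05 in edgeR (1.5% of all rows), and CSF1 was lower. The 6 signs below 0 were those of STAB1, SIGLEC1, CSF1, CSF1R, SPI1 and PTPRC. Without control 2, 25 of the 30 lay above 0 (51.3% of all rows), with 6 higher at an unadjusted p under 0.05 (2.56% of all rows) and CSF1 lower. Without resveratrol 2 the count higher at an unadjusted p under 0.05 was 10 (1.86% of all rows), and without control 1 it was 9 (2.9%). MSR1 and LYZ met this threshold with each of the 6 libraries left out in turn, and no other gene of the set did.

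**Figure D3:**
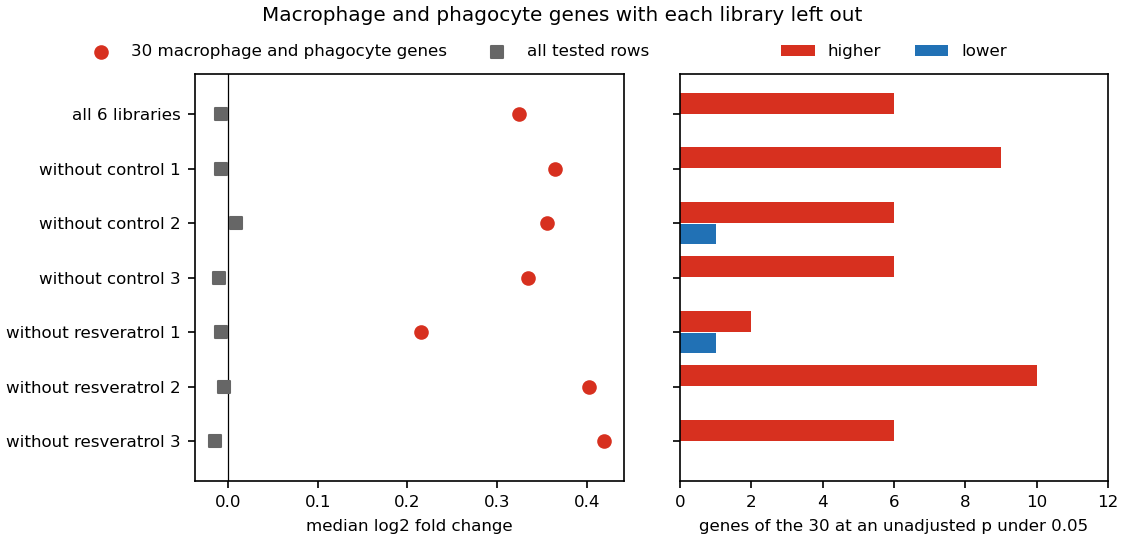
Left, the median log2 fold change in edgeR of the 30 genes (red) and of all tested rows (grey squares) with all 6 libraries and with each left out; right, the number of the 30 genes at an unadjusted p under 0.05 in each direction. The median of the 30 genes lies between 0.21 and 0.42, with the lowest value and the smallest count (2 higher, 1 lower) without resveratrol 1.

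Groups did not overlap on TMM-scaled CPM in 10 of the 30 genes, all higher in resveratrol (5.67% of all rows), and in 0 lower (6.97% of all rows). Besides the 6 genes above, these were CLEC7A, CYBB, TREM2 and MERTK. On deposited TPM, which is not scaled by TMM, the count was 5 (4.11% of all rows), namely LYZ, MSR1, TYROBP, CYBB and TREM2, with 0 lower (8.15% of all rows).

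The genes did not move as a block among the controls. In control 2 against the mean of control 1 and 3, 15 genes were higher and 15 lower on log2 CPM. TYROBP, CD14, CYBA, SPI1 and LAPTM5 were lower there by -0.84, -0.79, -0.63, -0.58 and -0.48. MARCO, LIPA, PTPRC, NCF1 and FCER1G were higher, by 0.88, 0.52, 0.44, 0.44 and 0.40. Control 2 was also the shallowest library, and the part of depth or library quality in this spread was not tested.

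**Figure D4:**
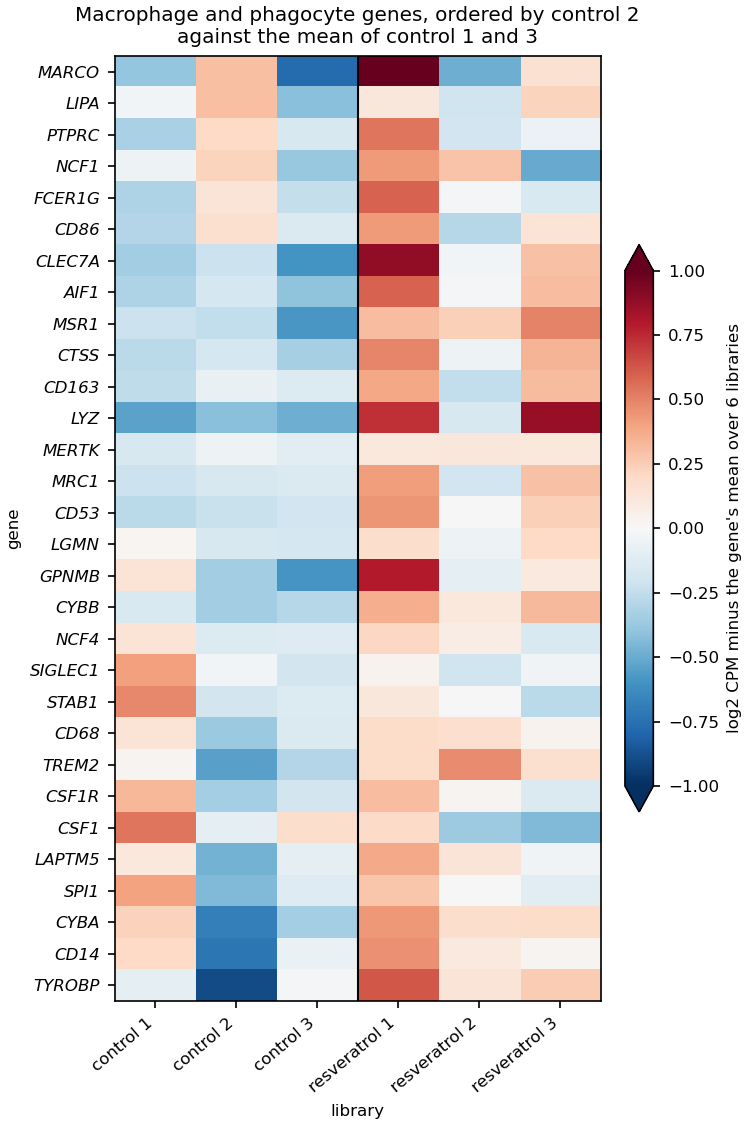
Log2 CPM of each gene minus its mean over the 6 libraries (colour scale limited to -1 and 1), with genes ordered by control 2 against the mean of control 1 and 3. The resveratrol 1 column is above the mean of each of the 30 genes, while control 2 runs from above the mean (MARCO, LIPA, PTPRC) to below it (CYBA, CD14, TYROBP).

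Most markers of some other leukocytes were also highest in resveratrol 1. Of the 9 T cell markers tested, 7 were highest in resveratrol 1, as were 4 of 4 NK cell markers and 3 of 3 mast cell markers. In other lists fewer were, with 1 of 3 neutrophil, 1 of 3 dendritic cell and 0 of 1 B and plasma cell markers tested. The other 2 neutrophil markers were highest in resveratrol 3. NK cell markers summed to 13.6 to 22.7 TPM in the controls and to 35.1, 14.3 and 19.0 TPM under resveratrol 1, 2 and 3. Mast cell markers summed to 29.5 to 41.5 TPM in the controls and to 60.7, 29.3 and 28.8 TPM under resveratrol. T cell markers other than CD247 summed to 11.2 to 15.7 TPM in the controls and to 26.8, 12.5 and 9.75 TPM under resveratrol.

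Without resveratrol 1 the median log2 fold changes of the T, NK, mast and dendritic cell lists were -0.26, -0.16, -0.22 and -0.08. The 1 B and plasma cell marker tested lay at 0.22. Neutrophil markers (S100A8, S100A12 and CSF3R, 3 of the 6 listed) summed to 64.6 to 115 TPM in the controls and 120.03 to 213 TPM under resveratrol. Their median log2 fold change was 0.95, and 0.92 without resveratrol 1, against 0.32 and 0.21 for the 30 genes. Of these 3 markers, 2 were higher at an unadjusted p under 0.05 in edgeR (2.21% of all rows). Myeloid cells share these genes to differing degrees with macrophages. The B cell gene PAX5 lay under 0.1 TPM in every library, and the dendritic cell list summed to 6.84 to 9.65 TPM in the controls and 8.95 to 12.7 TPM under resveratrol. Red cell genes, of which HBB made up almost all, summed to 777 to 1107 TPM in the controls and 1032 to 1206 TPM under resveratrol. The part of other leukocytes and of blood in the differences above was not tested.

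**Figure D5:**
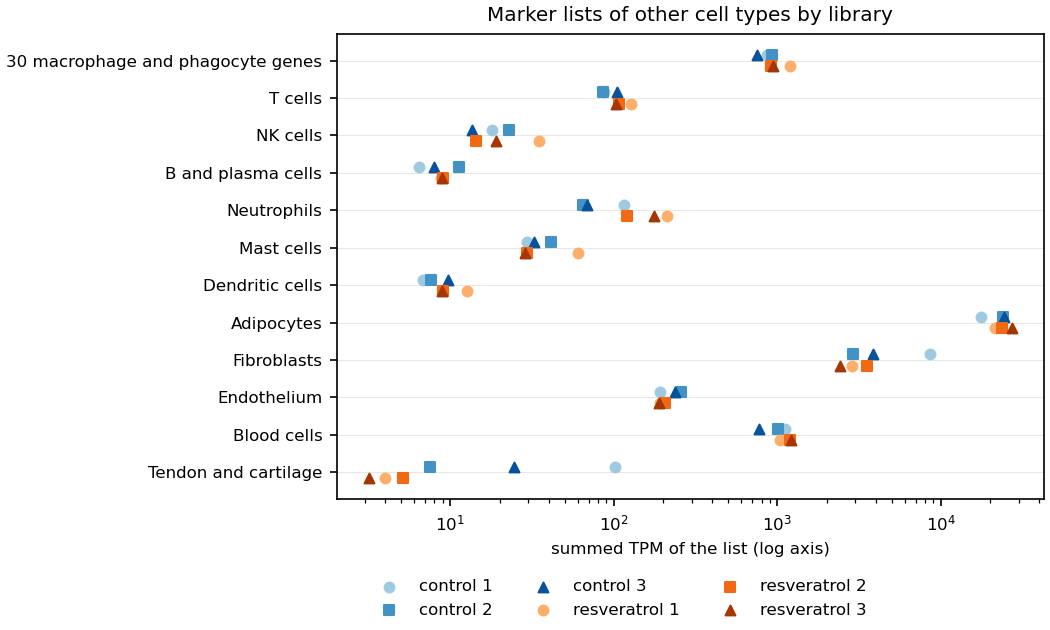
Summed TPM (log axis) of the 30 genes and of marker lists of other cell types in each library, with control in blue and resveratrol in orange. The T cell list includes CD247 here, unlike the sum in the text. Resveratrol 1 (light orange circle) is the highest point for the 30 genes and for the T, NK, mast and dendritic cell lists and for neutrophils, and control 1 (light blue circle) for fibroblasts and for tendon and cartilage.

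Other genes of resident macrophages had a median log2 fold change of 0.30, with 9 of 12 above 0 (48.8% of all rows) and 3 higher at an unadjusted p under 0.05 in edgeR (2.21% of all rows). VSIG4, a complement receptor of tissue macrophages, averaged 11.8 ± 1.16 TPM in the controls against 15.8 ± 3.39 TPM under resveratrol (SD over 3 libraries), and C1QC, a chain of complement C1q, 147 ± 13.2 against 199.96 ± 60.6 TPM. The median was 0.14 without resveratrol 1. Other lipid-associated and lysosomal genes, most of which adipocytes also express, had a median of 0.09. Of these 21 genes, 18 lay above 0 (48.8% of all rows) and 0 reached an unadjusted p under 0.05 (6.53% of all rows in either direction). Among them SPP1, a secreted phosphoprotein of activated macrophages, averaged 60.8 ± 14.7 against 101.9 ± 50.2 TPM, and HEXA, a lysosomal hexosaminidase, 60.1 ± 2.35 against 73.8 ± 6.496 TPM.

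A list of other genes around CSF1 and Fc receptor signalling also held an Fc receptor, other cytokine receptors and transcription factors. It had a median of 0.08, with 11 of 18 above 0 (48.8% of all rows). At an unadjusted p under 0.05 in edgeR, 1 was higher (2.21% of all rows) and 1 lower (4.32% of all rows). RUNX1, a transcription factor of blood cell development, measured 3.41, 4.76 and 3.74 TPM in the controls and 2.04, 1.99 and 1.62 TPM under resveratrol, without overlap. Its log2 fold change was -0.91 (SE 0.21, edgeR adjusted p = 0.697). BTK, a kinase of B cells and myeloid cells, measured 2.54, 2.39 and 1.90 TPM in the controls and 3.98, 3.22 and 3.07 TPM under resveratrol, a log2 fold change of 0.67 (SE 0.20). IL34, the other ligand of CSF1R, was added after its value was known, at a log2 fold change of 0.15 (SE 0.22).

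For monocyte recruitment, 5 of 7 genes lay above 0 (48.8% of all rows) and 3 were higher at an unadjusted p under 0.05 (2.21% of all rows). ITGAM, an integrin chain of myeloid cells, measured 9.71, 10.3 and 8.08 TPM in the controls and 13.1, 14.6 and 11.3 TPM under resveratrol, without overlap, with a log2 fold change of 0.52 (SE 0.16). CCR1, a chemokine receptor of monocytes, averaged 2.54 ± 0.724 against 4.10 ± 1.07 TPM. The median of this list was 0.26 with all libraries and -0.01 without resveratrol 1.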

How the data were processed

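Per the file headers, the authors deposited for every library read counts as whole numbers and TPM values, by gene. Their series table repeats the TPM of 14777 rows with a largest difference of 0. The submitters' processing notes name Bowtie 0.12.2 and the builds mm8 and mm9, which are mouse builds, while the identifiers are those of pig. The pig build, annotation, counting program and strand setting were not given in the sources used here. No coordinates are printed, and reads of overlapping genes or close paralogs cannot be assigned with certainty.

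Groups and replicate numbers came from sample titles. Symbols came from a table of gene identifiers. Rows averaging 0.5 TPM or more were kept (14908). Counts were scaled by TMM and tested in edgeR 4.0.16 (robust quasi-likelihood), p-values adjusted over all rows by Benjamini-Hochberg. SE is the size of the log2 fold change divided by the square root of F. Fits were tested on simulated data. Alternatives were DESeq2 1.42.0, limma 3.58.1 on log2 TPM, other scalings and filters, a replicate block, and each library left out (R 4.3.3). TPM depends on the assigned transcript length and is not TMM-scaled, so TPM and counts of a gene can differ in direction.

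The genes and lists were chosen with earlier results of these data known. All 30 genes are accounted for. Values in every library are given for genes at an unadjusted p under 0.05, for 15 defining genes and for the 3 lowest fold changes. Of each other pathway list at most the 2 genes with the smallest p are named. IL34 and CSF2RB are exceptions, named after their values were seen. A planned motif search in promoters was not run. A few genes that this rule takes are not reported here.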

Additional observations from a re-analysis of the deposited data

How the results depend on the processing

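The median log2 fold change of the 30 genes stayed above 0 in all alternatives run, from 0.21 (limma on log2(TPM + 1) and edgeR without resveratrol 1) to 0.42 (without resveratrol 3). It was 0.34 without PTPRC, CD53, LAPTM5, CYBA and CSF1. Of all genes, DESeq2 called 40 and limma on quantile-normalized log2(TPM + 0.5) called 1, and leaving out 1 library gave 0 to 5. None of the 30 was called in any alternative. With a library left out, 2 to 10 of the 30 were higher and 0 to 1 lower at an unadjusted p under 0.05. Groups then did not overlap in 10 to 18 genes with resveratrol higher and in 0 to 1 with it lower. Fewer libraries make non-overlap easier. The share of all rows in these settings is not given here, so the range cannot be set against 5.67%. On deposited TPM the 10 became 5.

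The deviations of same-numbered libraries from their group means had correlations of 0.16, 0.07 and 0.20, and each library correlated best with its own number. These values are small, and deviations within a group are not independent, so they cannot decide whether libraries were paired. The labels give no pairing. With the replicate number as a block in edgeR, 8 of the 30 genes were higher and 1, CSF1, was lower at an unadjusted p under 0.05. Over all 14908 rows, 447 were higher and 812 lower. The median of the 30 genes was 0.31, with 0 calls over all genes.

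Signs changed in 6 of the 30 genes. LIPA was -0.0072, -0.0074 and -0.0076 in limma with pseudocounts of 0.1, 0.5 and 1, and -0.018 after quantile normalization. With each library left out, LIPA ranged from -0.089 to 0.27, STAB1 from -0.25 to 0.12, SIGLEC1 from -0.28 to 0.044, CSF1R from -0.02 to 0.34, SPI1 from -0.094 to 0.34 and PTPRC from -0.039 to 0.37. The cause was not tested. The low read numbers of MARCO, TREM2 and CLEC7A limit their precision.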

Other observations

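CD247, the zeta chain of the T cell receptor, stood apart from the other T cell genes in every library. It measured 72.4, 75.2 and 88.8 TPM in the controls and 101, 95.4 and 93.9 TPM under resveratrol, while CD3E, a chain of the same receptor complex, lay between 1.41 and 5.42 TPM. The row of CD247 thus makes up most of the summed T cell level, and it was left out of that sum above after its value was seen.

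CSF2RB, the shared beta chain of the receptors for GM-CSF and interleukins, was in the list around CSF1 and Fc receptor signalling. It had all 3 resveratrol libraries below all 3 controls on both CPM and TPM. It measured 4.003, 4.72 and 3.35 TPM in the controls and 3.07, 3.33 and 2.30 TPM under resveratrol, with a log2 fold change of -0.38 (SE 0.18, edgeR adjusted p = 0.733), and was named after its value was seen. RUNX1 and CSF2RB were the only genes of that list of 18 with this pattern. Over all rows 6.97% had it on CPM and 8.15% on TPM. With resveratrol higher, 2 genes of the list did not overlap on CPM (5.67% of all rows) and 2 on TPM (4.11% of all rows).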
